A study of Rattus norvegicus with 8 samples.

Results

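The macrophage genes followed here in cirrhotic rat liver are those of recruited and scar-associated macrophages: Cd68, Trem2, Gpnmb, Lgals3, Cd63, Ccr2, Lyz2, Itgax, Csf1r and Fcgr1a. They were taken by symbol, as every probe set whose single platform gene symbol was one of the 10, which gave 11 probe sets (2 for Trem2, 1 for each other gene) among 31042 probe sets and 14217 named genes. The 8 livers are those of male Wistar rats made cirrhotic by breathing carbon tetrachloride (CCl4), a liver toxin, with phenobarbital, which raises the liver enzymes that activate it, at 0.3 g/L of their water. By the sample titles, 4 rats were given vehicle and 4 an antiangiogenic treatment, meant to limit new vessels; the series description calls the controls non-treated and speaks of angiogenesis inhibitors. The sources used here give no compound, dose or age, and no liver without cirrhosis is among the 8. The comparison asks whether treatment goes with a smaller macrophage signature, since inflammatory infiltrate is among the stated interests of the study. Levels are deposited log2 intensities, values after ± are SDs over 4 arrays, and a difference is the treated mean less the vehicle mean in log2 units.

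Liver macrophages have a resident part, the Kupffer cells, and a part that arises from blood monocytes. Monocytes enter the injured liver along chemokines read by the receptor CCR2, and live on signals through the receptor CSF1R. In fibrotic liver some of them take on a state marked by the lipid receptor TREM2, the glycoprotein GPNMB, galectin-3 and the tetraspanin CD63, and lie along the scars. The lysosomal protein CD68 and lysozyme are general products of phagocytes, the integrin chain CD11c (Itgax) is shared with dendritic cells, and the Fc receptor CD64 (Fcgr1a) binds IgG.

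The arrays were alike in overall level, with medians from 5.16 to 5.30. The 3′ to 5′ log2 ratio of the Gapdh controls, a measure of RNA integrity, averaged 0.301 ± 0.113 for vehicle and 0.288 ± 0.114 for treated rats (exact two-sided permutation p = 0.914, n = 4 per group). The same ratio of the beta-actin controls was larger, at 1.83 ± 0.09 and 1.82 ± 0.06 (exact two-sided permutation p = 0.857). The albumin probe set 1367555_at read between 14.79 and 14.85 on all 8 arrays. Vehicle 4 and treated 3 were nearly identical, although their labels put them in different groups. Over all probe sets r between them was 0.996, while the other 27 pairs of arrays had r from 0.956 to 0.988. Over the 11 macrophage probe sets the median absolute difference between them was 0.038, while other pairs had 0.244 to 1.65. Each stays in its labelled group here, and differences without both arrays are given below. The arrays were clustered by the BioB and BioC bacterial spike-in controls, with the number of groups set to 3 rather than found. The groups were vehicle 1 with treated 1, vehicle 4 with treated 3, and the other 4 arrays.

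No macrophage gene passed the test. Of the 11 probe sets, 9 averaged lower and 2, both of Trem2, averaged higher in treated livers, and the ranges of the groups overlapped at all 11. The count past an adjusted p of 0.05 was 0 of 11 (limma, smallest adjusted p = 0.979), and 0 of 11 had an unadjusted p under 0.05, a count that was 3 with array weights, without vehicle 4 or without treated 4 (where 6.59%, 7.94% and 9.29% of all probe sets passed). Over all 31042 probe sets the adjusted count was also 0 (0%), 3.93% had an unadjusted p under 0.05 (2.04% lower and 1.89% higher), 1.67% had groups without overlap (0.58% lower and 1.09% higher), and 45.3% had a difference below 0. Over the 10 genes the median difference was −0.45, with 9 of 10 lower, against a median of 0.0061 and 48.4% lower over all 14217 genes. The median lay between −0.79, without treated 4, and −0.19, without vehicle 3; it was −0.21 and −0.22 without treated 1 and treated 2. These values do not establish a lower level in treated livers. Were there one, fewer macrophages and less RNA per macrophage could not be told apart in whole tissue.

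**Figure D1:**
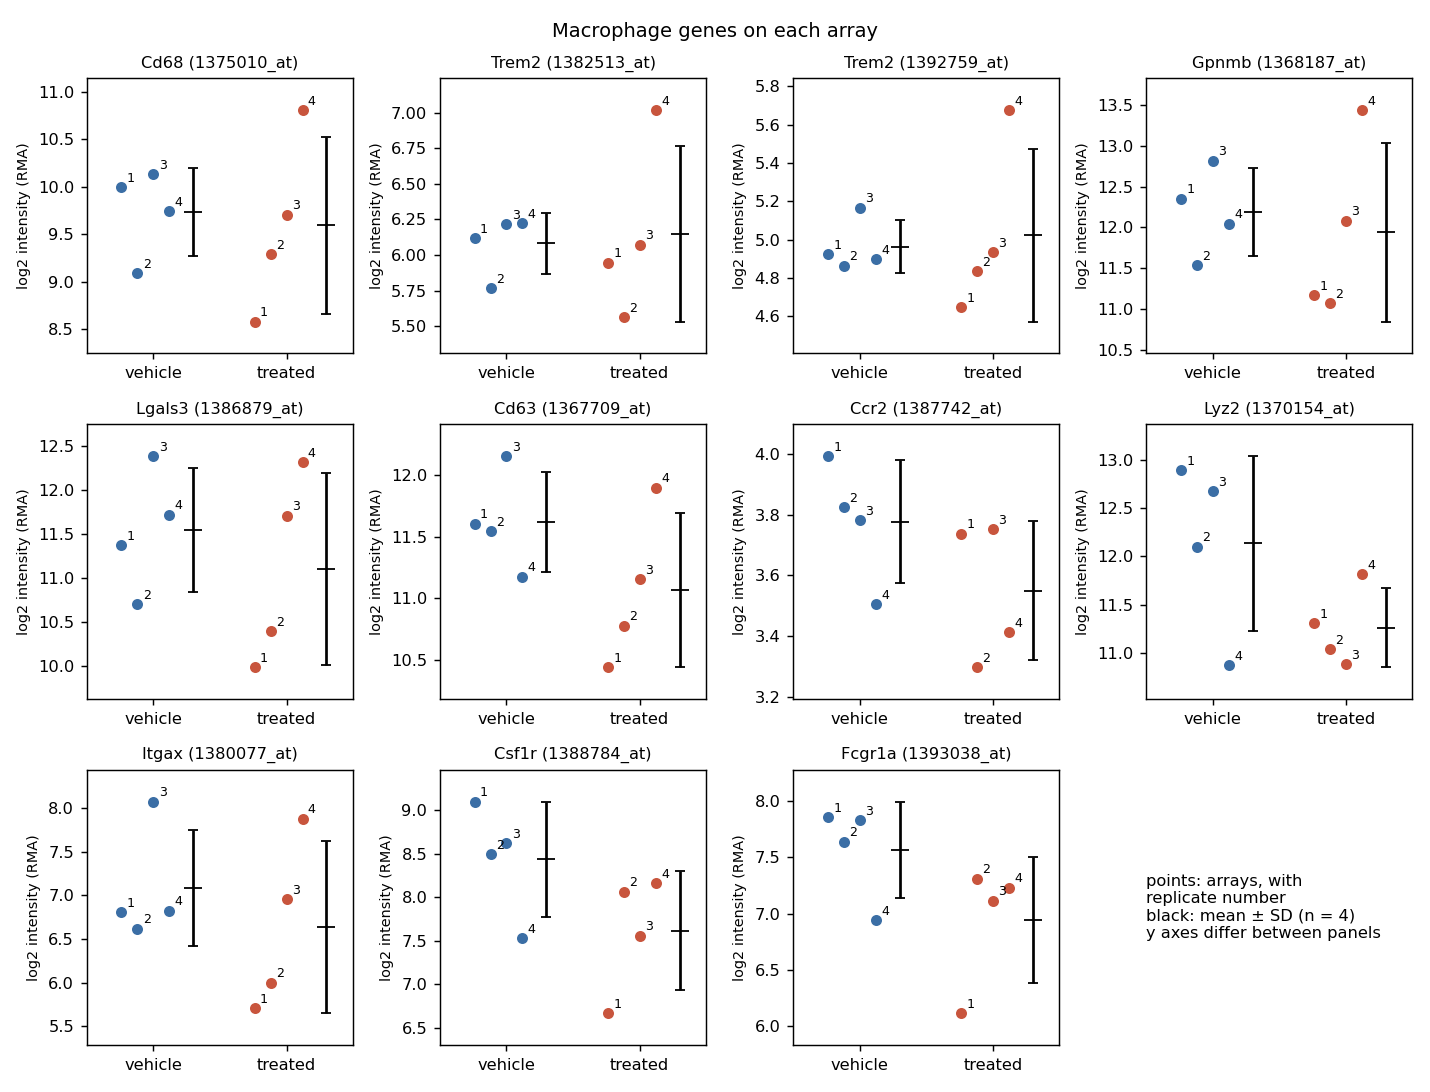
Log2 intensity of each macrophage probe set on the 4 vehicle and 4 treated arrays, numbered by replicate, with mean ± SD; the y axes differ between panels. Treated 4 is the highest array for both Trem2 probe sets, Gpnmb and Cd68, and vehicle 1 is the highest for Csf1r, Fcgr1a, Lyz2 and Ccr2.

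The letters before the start sites of 4 of these genes are shown: Trem2 and Gpnmb, which name the scar-associated state, and Csf1r and Lyz2, which had the largest differences. Each run is the 250 bases before the annotated transcription start, from RefSeq promoters of the rat assembly GRCr8, read 5′ to 3′ on the gene's strand. Capitals mark GAGGAA, the core bound by PU.1 and other ETS factors (PU.1 is a master regulator of macrophage genes), or its reverse complement TTCCTC.
Trem2, chr9:20151780-20152029, minus strand: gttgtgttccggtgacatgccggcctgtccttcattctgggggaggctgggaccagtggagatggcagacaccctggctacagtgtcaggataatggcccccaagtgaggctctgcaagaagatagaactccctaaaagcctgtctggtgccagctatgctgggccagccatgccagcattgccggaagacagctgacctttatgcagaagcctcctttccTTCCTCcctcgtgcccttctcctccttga
Gpnmb, chr4:79340878-79341127, plus strand: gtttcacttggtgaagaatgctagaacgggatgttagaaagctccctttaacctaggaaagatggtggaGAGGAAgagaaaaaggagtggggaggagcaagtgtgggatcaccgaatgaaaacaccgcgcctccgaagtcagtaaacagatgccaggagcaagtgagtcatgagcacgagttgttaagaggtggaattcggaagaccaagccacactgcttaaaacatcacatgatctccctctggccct
Csf1r, chr18:56834129-56834378, plus strand: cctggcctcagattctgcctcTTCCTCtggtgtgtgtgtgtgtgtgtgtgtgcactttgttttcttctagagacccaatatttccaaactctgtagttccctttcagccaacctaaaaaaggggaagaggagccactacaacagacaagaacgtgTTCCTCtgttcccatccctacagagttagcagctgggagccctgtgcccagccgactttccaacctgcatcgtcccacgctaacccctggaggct
Lyz2, chr7:54798012-54798261, minus strand: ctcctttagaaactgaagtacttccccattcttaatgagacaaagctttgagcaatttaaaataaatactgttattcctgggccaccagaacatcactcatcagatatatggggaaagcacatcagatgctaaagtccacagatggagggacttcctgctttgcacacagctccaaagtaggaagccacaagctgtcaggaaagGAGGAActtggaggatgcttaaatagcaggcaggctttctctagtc
The promoter table held 8 of the 10 genes, and GAGGAA on either strand was found in 6 of these 8 windows (Cd68, Trem2, Gpnmb, Cd63, Lyz2 and Csf1r), against 23.3% of all 33469 windows of the same length. The E-box CACGTG, which reads the same on both strands and is bound by MITF and TFEB among others, was found in 1 of the 8, that of Cd63, and in 5.59% of all windows. A match is a description of the letters and not a measured site.

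Trem2, the lipid-sensing receptor that names the scar-associated state, had the smallest difference of the 10 genes. Its brighter probe set, 1382513_at, read 6.12, 5.77, 6.22 and 6.22 in the vehicle livers, in the order of their replicate numbers, and 5.95, 5.56, 6.07 and 7.02 in the treated livers. Treated 4 stood above all other arrays, and the other 3 treated arrays lay below the vehicle mean. The groups averaged 6.08 ± 0.22 and 6.15 ± 0.62, a difference of 0.07 with a 95% interval from −0.57 to 0.70 (limma adjusted p = 0.996). The second probe set, 1392759_at, gave the same picture at 4.92, 4.86, 5.17 and 4.90 in vehicle and 4.65, 4.83, 4.93 and 5.68 in treated livers (difference 0.06, −0.42 to 0.54). Without treated 4 the differences of the 2 probe sets were −0.22 and −0.16, and that of the first was −0.04 without vehicle 2. The sign of the Trem2 difference therefore turned with single arrays.

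Gpnmb (1368187_at), a transmembrane glycoprotein of lipid-laden and scar-associated macrophages, read 12.35, 11.54, 12.82 and 12.05 in vehicle and 11.17, 11.07, 12.08 and 13.44 in treated livers. Treated 1 and 2 lay below every vehicle array and treated 4 above every one. The difference was −0.25 (−1.39 to 0.90, limma adjusted p = 0.989), and it was 0.01 without treated 1, 0.04 without treated 2 and −0.75 without treated 4. Lgals3 (1386879_at), which encodes galectin-3, a lectin made in abundance by activated macrophages, read 11.38, 10.70, 12.39 and 11.72 in vehicle and 9.98, 10.39, 11.71 and 12.32 in treated livers. Its lowest arrays were again treated 1 and 2, but its highest was vehicle 3, and the difference was −0.45 (−1.67 to 0.77, limma adjusted p = 0.979). Leaving out 1 array gave −0.07 (treated 1), −0.16 (vehicle 3), −0.21 (treated 2), −0.73 (vehicle 2) and −0.85 (treated 4). Cd63 (1367709_at), a tetraspanin of late endosomes and lysosomes found in many cell types, read 11.61, 11.55, 12.16 and 11.18 in vehicle and 10.44, 10.78, 11.16 and 11.90 in treated livers. Treated 1 to 3 lay below every vehicle array and treated 4 lay within the vehicle range. Cd63 averaged 1.47-fold lower (difference −0.55, −1.27 to 0.16, limma adjusted p = 0.979). Leaving out treated 4 gave −0.83, and leaving out treated 1 gave −0.34.

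Cd68 (1375010_at), the lysosomal glycoprotein used to count macrophages in tissue sections, read 9.99, 9.09, 10.13 and 9.74 in vehicle and 8.58, 9.29, 9.71 and 10.81 in treated livers. The treated arrays spanned 2.23 and the vehicle arrays 1.05, so the treated range enclosed the vehicle range. The difference was −0.14 (−1.13 to 0.84), with 0.195 without treated 1 and −0.55 without treated 4. Itgax (1380077_at), the integrin chain CD11c of inflammatory macrophages and dendritic cells, read 6.81, 6.62, 8.07 and 6.82 in vehicle and 5.71, 5.9997, 6.95 and 7.88 in treated livers. Vehicle 3 and treated 4 stood well above the rest, and treated 1 and 2 were the lowest arrays. Its difference was −0.45 (−1.56 to 0.67), with −0.12 without vehicle 3, −0.14 without treated 1, −0.24 without treated 2 and −0.86 without treated 4.

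Csf1r (1388784_at), the receptor through which macrophage colony-stimulating factor keeps macrophages alive, had a larger difference. It read 9.10, 8.49, 8.62 and 7.53 in vehicle and 6.67, 8.06, 7.56 and 8.16 in treated livers. All 4 treated arrays lay below vehicle 1 to 3, and the overlap came from vehicle 4, the near copy of treated 3. The groups averaged 8.43 ± 0.66 and 7.61 ± 0.68, 1.77-fold lower in treated livers (difference −0.82, −1.72 to 0.08, limma adjusted p = 0.979). The difference was −1.12 without vehicle 4 and −0.51 without treated 1.

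Fcgr1a (1393038_at), the high-affinity IgG receptor of monocytes and macrophages, had the same arrangement. It read 7.85, 7.64, 7.83 and 6.94 in vehicle and 6.12, 7.31, 7.11 and 7.23 in treated livers. Vehicle 1 to 3 stood above every treated array, and treated 1 was the lowest. The mean was 1.54-fold lower (difference −0.62, −1.30 to 0.05), with −0.35 without treated 1 and −0.83 without vehicle 4. Lyz2 (1370154_at), the lysozyme of phagocytes, read 12.89, 12.10, 12.67 and 10.87 in vehicle and 11.31, 11.04, 10.88 and 11.82 in treated livers. Here too vehicle 1 to 3 lay above every treated array, while vehicle 4 was the lowest of all 8 arrays. This arrangement was described with the values in view, and how many of all probe sets share it was not counted. Lyz2 averaged 12.13 ± 0.90 and 11.26 ± 0.41, with the largest difference of the 10 genes, −0.87 (−1.81 to 0.07, limma adjusted p = 0.979). Leaving out vehicle 4 gave −1.29, and leaving out vehicle 1 gave −0.62.

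Ccr2 (1387742_at), the chemokine receptor that brings monocytes into tissue, was dim. It read 3.99, 3.83, 3.78 and 3.504 in vehicle and 3.74, 3.30, 3.75 and 3.41 in treated livers, and on 6 of the 8 arrays it lay at or below the 25th percentile of all probe sets (3.74 to 3.91). Its difference was −0.23 (−0.57 to 0.12), and lay between −0.32 without vehicle 4 and −0.14 without treated 2. A level this dim gives little information on the receptor.

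**Figure D2:**
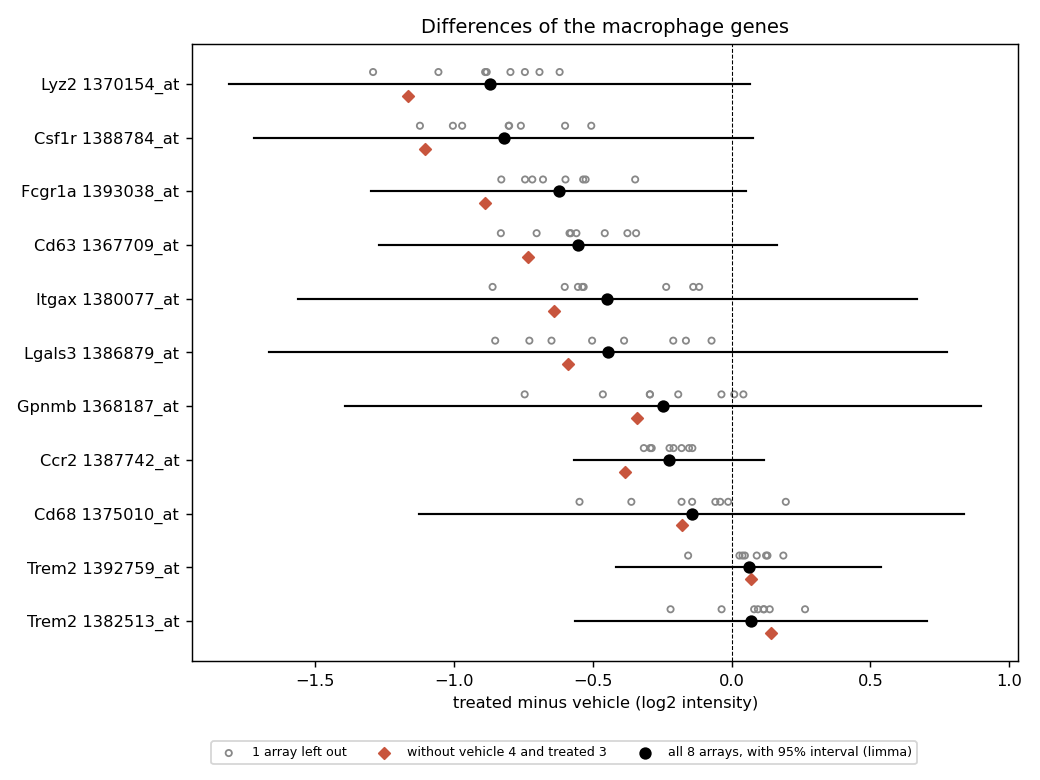
Treated minus vehicle differences of the 11 macrophage probe sets on the log2 scale, with limma's 95% interval over 8 arrays, the differences with 1 array left out, and those without vehicle 4 and treated 3. Every interval includes 0; Lyz2, Csf1r and Fcgr1a lie furthest below it and both Trem2 probe sets just above it.

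Vehicle 4 and treated 3 stand in opposite groups and hardly differ, so leaving both out tends to enlarge differences by arithmetic alone. Without these 2 nearly identical arrays the differences were larger in size at all 11 probe sets. Those of Lyz2, Csf1r and Fcgr1a were −1.17, −1.105 and −0.89, and those of Cd63, Gpnmb and Cd68 were −0.73, −0.34 and −0.18. The Trem2 probe sets differed by 0.14 and 0.07. None of the 11 passed an adjusted p of 0.05 there (0 by limma on 6 arrays, smallest adjusted p = 0.609), and 4 had an unadjusted p under 0.05, all lower: Lyz2, Csf1r, Fcgr1a and Ccr2. In that fit 6.52% of all probe sets had an unadjusted p under 0.05, and 3.67% did so with a lower mean. Within the spike-in groups, treated 1 was lower than vehicle 1 at 11 of 11 probe sets, by −2.43 at Csf1r and −0.17 at the brighter Trem2 probe set. In the group of 4 arrays 7 of 11 were lower, with −0.96 at Lyz2, −0.44 at Csf1r, 0.44 at Cd68 and 0.30 at Trem2. Treated 3 was lower than its near copy vehicle 4 at 4 of 11, with values between −0.15 and 0.25. The first and last of these comparisons set 1 array against 1. The share of all probe sets that were lower in the same arrays was not counted. The median over all probe sets was 5.28 on vehicle 1 and 5.16 on treated 1.

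Most of the genes correlated positively across arrays, to unequal degrees. Correlations were computed over 7 arrays, with vehicle 4 and treated 3 counted once as their mean, and p-values come from exact permutation of the arrays, adjusted by Benjamini-Hochberg over the 45 pairs of genes. Of these pairs, 43 correlated positively and 9 passed an adjusted p of 0.05. How many pairs of other genes would pass was not counted, so these counts do not set the macrophage genes apart. The 9 pairs were Cd68 with Gpnmb, Lgals3 and Itgax, Gpnmb with Trem2, Lgals3 and Itgax, Itgax with Lgals3 and Cd63, and Csf1r with Fcgr1a. Lyz2 passed with no gene, with an r of 0.774 to Csf1r and 0.70 to Fcgr1a. Cd63 had an r of 0.575 to Trem2 and 0.778 to Fcgr1a, neither of which passed. Whether correlations of different pairs differ was not tested.

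Lgals3 and Itgax had r = 0.969 and rho = 1.0 (exact permutation p = 0.000198, the smallest that 5040 orders can give, and p = 0.000397, n = 7; adjusted p = 0.00893 and 0.0179), and r = 0.939 without the 2 arrays farthest from the median of Lgals3. Trem2 and Gpnmb had r = 0.906 and rho = 0.929 (exact permutation p = 0.00198 and 0.00675, n = 7; adjusted p = 0.0268 and 0.0461), and r = 0.807 without 2 arrays in the same way. Csf1r and Fcgr1a had r = 0.975 and rho = 0.964 (exact permutation p = 0.000397 and 0.00278, n = 7; adjusted p = 0.00893 and 0.0461), and r = 0.945 without 2 arrays. Trem2 and Csf1r had r = 0.0995 and rho = 0.214 (exact permutation p = 0.810 and 0.662, n = 7; adjusted p = 0.889 and 0.744), and r = 0.191 without 2 arrays. These correlations pool vehicle and treated arrays, and the spike-in groups hold too few arrays for values within them. Ccr2 passed with no other gene (r from −0.147 to 0.685).

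**Figure D3:**
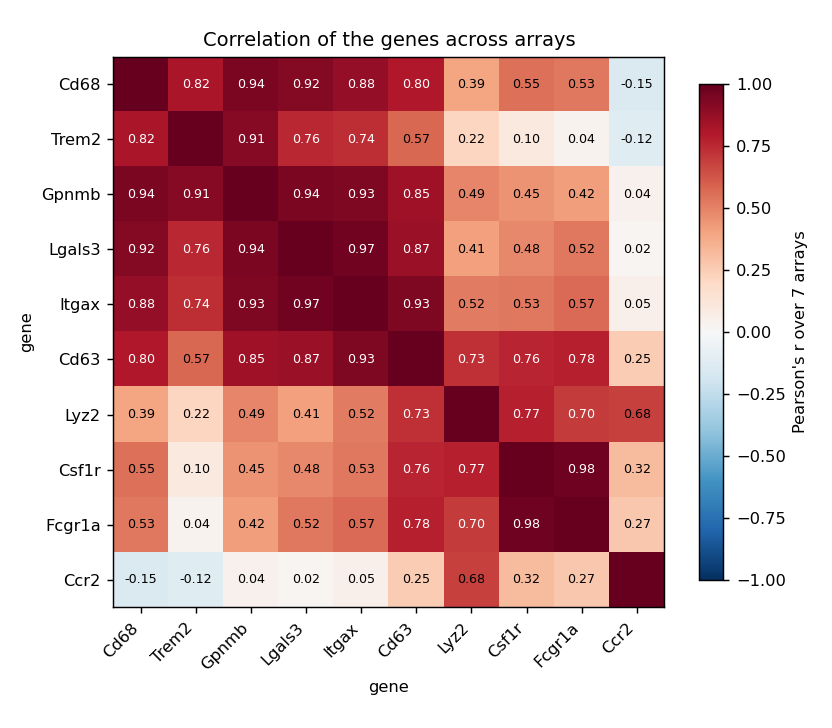
Pearson's r between the brightest probe sets of the 10 macrophage genes over 7 arrays, with vehicle 4 and treated 3 averaged. Csf1r and Fcgr1a correlate at 0.98 and Lgals3 and Itgax at 0.97, while Trem2 and Csf1r correlate at 0.10.

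The genes whose products work directly with these proteins gave no called difference. Of 13 listed ligands, adaptors and partners 11 were named by the annotation, 7 of them averaged lower and 4 higher, 0 had an unadjusted p under 0.05, and the median difference was −0.29 (−0.07 without treated 1, −0.10 without vehicle 3 and −0.14 with array weights). Tyrobp (1374730_at), the adaptor DAP12 that carries the TREM2 signal, read 8.82, 8.35, 8.81 and 7.80 in vehicle and 7.18, 8.17, 7.88 and 8.89 in treated livers (difference −0.42, −1.24 to 0.40). Fcer1g (1373575_at), the signalling chain of CD64, read 10.47, 9.70, 10.16 and 9.12 in vehicle and 9.03 to 10.21 on treated 2 to 4, with treated 1 lowest at 8.32 (difference −0.70, −1.62 to 0.23). Itgb2 (1383131_at), the beta chain that pairs with CD11c, differed by −0.29, and the kinase Syk (1368186_a_at), which acts below both adaptors, by 0.001. Mitf (1377328_at) and Tfec (1378428_at), transcription factors of the family that drives lysosomal genes, differed by −0.30 and −0.56, and Csf2rb (1369828_at), the shared receptor chain for GM-CSF, by −0.02.

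Of the 2 ligands of the receptor CSF1R, Csf1 (1380582_at) averaged 8.998 ± 0.35 and 9.13 ± 0.26 (difference 0.13, −0.32 to 0.58), and its other 3 probe sets differed by −0.12, 0.13 and 0.08. Il34 (1380055_at), the second ligand, averaged 5.99 ± 0.47 and 5.53 ± 0.46 (difference −0.46, −1.09 to 0.18). The CCR2 ligands spread more among treated than among vehicle livers, with SDs of 2.75 and 0.44 for Ccl2 and of 1.17 and 0.09 for Ccl7. Ccl2 (1367973_at) read 6.09, 6.26, 7.02 and 6.12 in vehicle and 3.80, 10.48, 6.45 and 6.56 in treated livers, and Ccl7 (1379935_at) read 4.36 to 4.52 in vehicle and 4.03, 6.67, 4.68 and 4.45 in treated livers. Treated 2 thus held the highest level of both chemokines and treated 1 the lowest, and the intervals of their differences ran from −2.13 to 3.03 and from −0.59 to 1.62.

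Companion genes of scar- and lipid-associated macrophages averaged lower at 15 of 19 measured genes, with a median of −0.34 and 0 at an unadjusted p under 0.05. The median was −0.65 without treated 4, and −0.08, −0.13 and −0.09 without vehicle 3, treated 1 and treated 2. Spp1 (1367581_a_at), osteopontin, a product of scar-associated macrophages and of bile duct cells, read 9.39, 7.41, 9.78 and 9.04 in vehicle and 6.96, 7.41, 9.02 and 10.87 in treated livers. Treated 4 was its highest array and treated 1 its lowest, and the difference was −0.34 (−2.25 to 1.57). Cd9 (1371499_at), a tetraspanin of the same state and of many other cells, read 8.49, 8.28, 8.53 and 6.80 in vehicle and 6.18, 6.67, 6.66 and 8.14 in treated livers. It averaged 2.16-fold lower, with an interval that just includes 0 (difference −1.11, −2.22 to 0.0014, limma adjusted p = 0.979). Fabp5 (1370281_at), a fatty acid carrier, differed by −0.57 (−1.39 to 0.25), and Vim (1367574_at), the filament protein vimentin of mesenchymal cells and leukocytes, by −0.91 (−1.86 to 0.04). At the other end stood the fatty acid receptor Cd36 (1367689_a_at, 0.41) and the lysosomal lipase Lipa (1368075_at, 0.19).

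**Figure D4:**
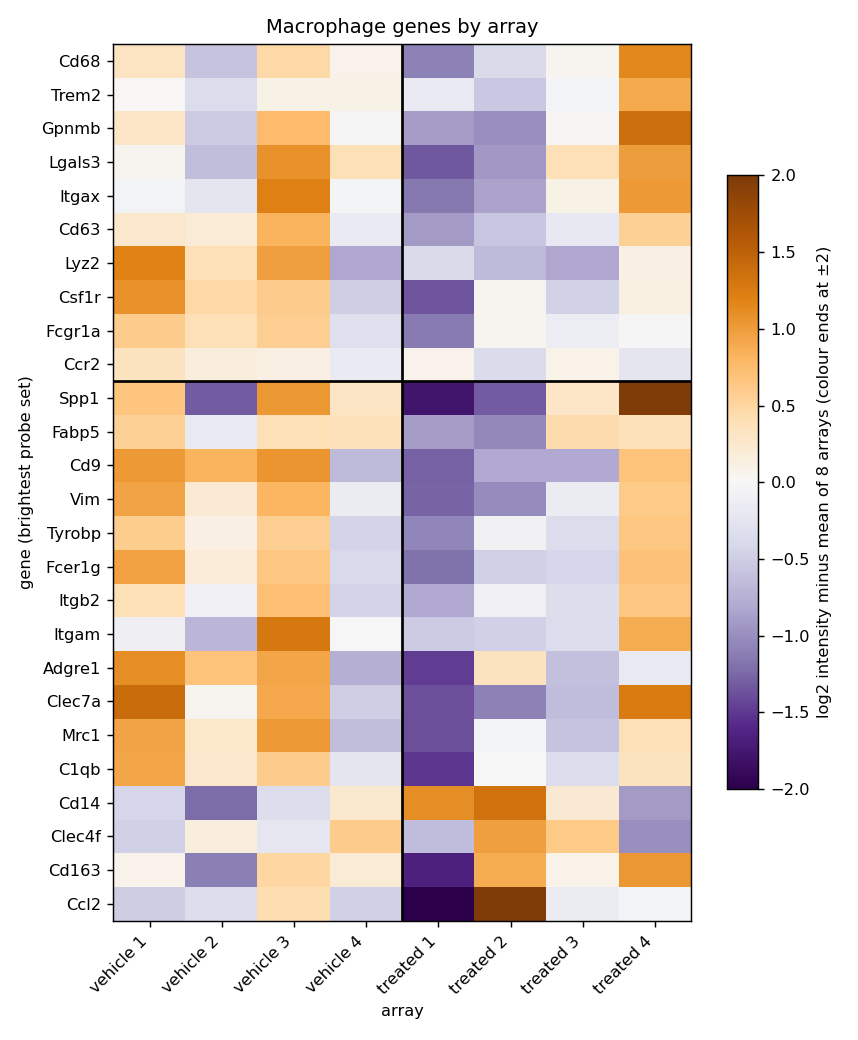
Log2 intensity of the 10 macrophage genes (above the line) and 16 related genes on each array, minus the gene's mean over the 8 arrays; the colour scale ends at ±2. Treated 1 is low for most rows, treated 4 is high from Cd68 to Cd63 and for Spp1, and vehicle 4 resembles treated 3.

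Other monocyte and macrophage genes averaged lower at 16 of 19, with a median of −0.51, between −0.81 without vehicle 4 and −0.20 without treated 1, and −0.31 without vehicle 1. Adgre1 (1381311_at), an adhesion receptor used to mark tissue macrophages, read 7.01, 6.58, 6.83 and 5.15 in vehicle and 4.43, 6.24, 5.28 and 5.72 in treated livers. As for Csf1r, vehicle 1 to 3 lay above every treated array and vehicle 4 did not (difference −0.97, −2.05 to 0.10). This arrangement too was described with the values in view, and its share over all probe sets was not counted. Clec7a (1382692_at), the beta-glucan receptor dectin-1, differed by −0.93 (−2.29 to 0.44), and Itgam (1388046_at), the integrin chain CD11b, by −0.24 (−1.25 to 0.78). Cd14 (1368490_at), the endotoxin co-receptor, had the opposite sign, with 9.88, 9.08, 9.97 and 10.55 in vehicle and 11.41, 11.65, 10.54 and 9.40 in treated livers. Treated 1 and 2, the arrays lowest in Gpnmb, were the highest in Cd14, and treated 4 was the second lowest (difference 0.88, −0.23 to 1.99, limma adjusted p = 0.979). Mpeg1 (1389006_at), a pore-forming protein of macrophages, differed by 0.26. In this list 3 genes, Fcgr3a, Plac8 and Fcnb, had an unadjusted limma p under 0.05, all with lower means. Over all 14217 genes, 398 did so in that direction. Fcgr3a, Plac8 and Fcnb were picked with their values in view.

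Kupffer cell genes had a median near 0. Of 13 measured genes 7 averaged lower and 6 higher, and the median of −0.03 became 0.03 under median centring of the arrays, 0.07 over probe sets with a mean of at least 6 and 0.11 with array weights. With 1 array left out it ran from −0.36 (treated 2) to 0.18 (treated 1), and leaving out vehicle 4 gave 0.17. Clec4f (1368755_at), a lectin restricted to Kupffer cells in rodents, read 8.83, 9.46, 9.09 and 9.90 in vehicle and 8.66, 10.28, 9.93 and 8.31 in treated livers (difference −0.03, −1.03 to 0.97). Treated 4, the highest array for Trem2 and Gpnmb, was the lowest for Clec4f. Cd163 (1393917_at), the haemoglobin scavenger receptor, read 6.998, 5.82, 7.42 and 7.12 in vehicle and 5.26, 7.82, 7.01 and 7.97 in treated livers (difference 0.18, −1.16 to 1.51). The lowest differences in the list were those of the mannose receptor Mrc1 (1392648_at, −0.81) and the complement gene C1qb (1370215_at, −0.78), and the highest those of Id3 (1387769_a_at, 0.52) and the oxysterol receptor gene Nr1h3 (1387365_at, 0.37). An unadjusted limma p under 0.05 was found for 1 gene with a higher mean, Id3, and for 0 with a lower one. Over all 14217 genes, 277 had such a p with a higher mean and 398 with a lower one. Marco, Vsig4 and Timd4 were not named by the annotation and are not analysed here.

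Markers of several other cell types also averaged lower in treated livers, with 0 past an adjusted p of 0.05 (limma). Endothelial markers averaged lower at 9 of 9. Array means of the list ran from 7.06 to 7.88 in vehicle and from 6.88 to 6.98 in treated livers, without overlap. The closest means were those of the near copies, vehicle 4 at 7.06 and treated 3 at 6.98. Over all 14217 genes, 398 had an unadjusted p under 0.05 with a lower mean, and 89 were lower without overlap. Among the endothelial markers 5 of the 9 had such a p. These were Nos3, whose groups did not overlap, Lyve1, Emcn, Stab2 and Tek, with differences from −1.26 for Lyve1 to −0.54 for Tek. Stellate cell and myofibroblast markers were lower at 9 of 10 (7.90 to 9.11 against 7.45 to 8.72), dendritic cell markers at 7 of 7 (5.48 to 6.63 against 5.26 to 5.82) and bile duct markers at 6 of 6 (6.23 to 6.93 against 5.801 to 7.06). An unadjusted p under 0.05 with a lower mean was found for 2 stellate (Acta2 and Tagln), 2 dendritic (Clec9a and Clec10a) and 0 bile duct markers. T, NK and B cell markers were lower at 7 of 10 (4.28 to 4.69 against 4.22 to 4.497), with such a p for 2 (Cd3e and Lck), and neutrophil markers at 6 of 8 (4.49 to 5.62 against 4.65 to 5.44). The second Cd3e probe set, 1389997_at, differed by −0.11 (−0.51 to 0.28). It lay at or below the 25th percentile on 7 of the 8 arrays. Hepatocyte markers were lower at 6 of 9, with array means of 13.23 to 13.44 and 13.02 to 13.39 and a median difference of −0.03. The dendritic cell list includes Clec10a (1368464_at), a lectin of dendritic cells and macrophages picked with its values in view, which differed by −1.88. The part of these cell types in the macrophage values was not tested.

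**Figure D5:**
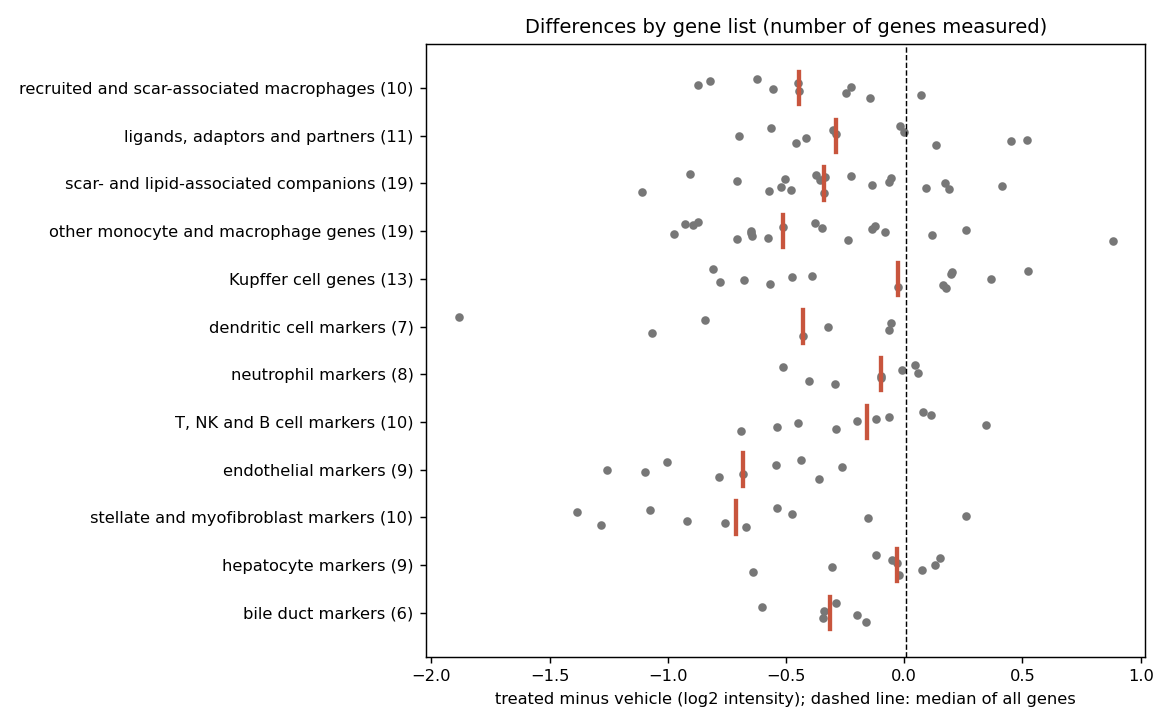
Treated minus vehicle difference of each measured gene (points, brightest probe set) in 12 lists on the log2 scale, with the median of each list (bar) and that of all genes (dashed line). The medians of the macrophage genes and their companions lie below 0, that of Kupffer cell genes near 0, and those of endothelial and stellate markers furthest below.

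The genes most like the mean of the 10 macrophage genes over the 8 arrays were, in order, Mrfap1 (1388311_at), Galc (1376790_at), Rcn1 (1393643_at), Sdcbp (1398762_at), Rpl3 (1371300_at) and Ddx39a (1387048_at), with r from 0.983 to 0.979. Galc, a lysosomal galactolipid hydrolase, read 7.12, 6.38, 7.03 and 6.24 in vehicle and 5.46, 5.86, 6.29 and 7.25 in treated livers. At a looser mark, 278 of 8486 genes with a mean of at least 6 had r above 0.9, so close likeness was not confined to the genes named. The mean of the 10 genes, each centred on its own mean, was 0.41, −0.07, 0.67 and −0.14 in vehicle and −0.84, −0.52, −0.10 and 0.60 in treated livers, so that treated 1 and 2 were the lowest arrays and vehicle 3 and treated 4 the highest.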

How the data were processed

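Livers of 8 rats were profiled on Affymetrix Rat2302 arrays, 1 array per rat by the labels. The submitters' processing notes name affy and RMA, a method of background correction, quantile normalization and summary over probes, and give no version or setting. The deposited values are log2 intensities (31099 probe sets, with 0 array columns unused), and were used as deposited. RMA shrinks differences of dim probe sets. The 57 control probe sets were left out, leaving 31042, of which 20826 had 1 gene symbol in the platform annotation, 436 had several and 9780 had none. All 10 member genes matched the RefSeq gene table of GRCr8 by identifier and symbol. Array values hold no molecule counts, so the number of arrays limits the precision.

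Groups were compared in limma 3.58.1 under R 4.3.3 (lmFit, eBayes), without covariates and with 6 residual degrees of freedom. P-values were adjusted over all 31042 probe sets by Benjamini-Hochberg. Differences are treated minus vehicle, with 95% intervals from the moderated variances. A gene was represented by its brightest single-symbol probe set. Lists were described, not tested. The members, the lists and the tests were chosen with earlier results of these data known. The text names all member probe sets, the measured ligands, adaptors and partners, 10 listed macrophage genes, up to 2 genes at each end of the other macrophage lists, and the 6 genes most like the member mean; other names were chosen after their values were seen. Alternatives were quantile normalization, median centring, a filter at a mean log2 of 6, trended and robust eBayes, array weights, blocks on replicate number or spike-in group, averaging a gene's probe sets, and leaving out arrays. The fit was tested on simulated data. Arrays with the same replicate number did not deviate together (correlations of deviations from the group means of −0.114, 0.041, −0.124 and −0.620), so the numbers were not taken to pair rats.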

Additional observations from a re-analysis of the deposited data

Results flagged for a closer look

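In 4 of 100 groups of 4 arrays examined (50 named probe sets), 1 array stood apart, by Dixon's ratio of its gap to the nearest array over the range of the group; chance gives about 1 in 20. Itgax had a ratio of 0.859 in vehicle livers, with vehicle 3 at 8.07 and the next array at 6.82. Fcgr1a had 0.837 in treated livers, with treated 1 at 6.12 and the next at 7.11. Cd9 had 0.859 in vehicle livers, with vehicle 4 at 6.80 and the next at 8.28. Itgam had 0.876 in treated livers, with treated 4 at 6.98 and the next at 5.74.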

How the results depend on the processing

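None of the 11 macrophage probe sets passed an adjusted p of 0.05 under any alternative run (0 in each). With the replicate number as a block, for numbers that do not pair rats, 0 probe sets were called, and it changed no call. Over all probe sets the adjusted count of 0 became 3 without vehicle 4 and treated 3 together, and ranged from 0 to 11 with 1 array left out (11 without vehicle 4). The unadjusted count of 1220 became 481 over probe sets with a mean of at least 6, where fewer are tested, 785 with the replicate block, 2047 with array weights and 2025 without both near copies; it was 650, 626, 538, 2466 and 2885 without vehicle 1, vehicle 3, treated 1, vehicle 4 and treated 4. Among the member probe sets, signs turned only when 1 array was left out: differences then ranged from −0.55 to 0.195 for Cd68, from −0.22 to 0.26 and −0.16 to 0.19 for the Trem2 probe sets 1382513_at and 1392759_at, and from −0.75 to 0.0422 for Gpnmb, which was 0.01 without treated 1. The other 7 member probe sets kept a lower mean under every alternative that included them; Ccr2 and 1392759_at did not enter the filtered fit. The members' count at an unadjusted p under 0.05, 0 of 11 on all arrays, became 3 with array weights (6.59% of all probe sets), 1 with the spike-in block (4.49%), 3 without vehicle 4 (7.94%), 3 without treated 4 (9.29%), 1 without treated 2 (2.81%) and 4 without both near copies. The cause of these changes was not tested. Dim signal limits Ccr2.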

Other observations

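Treated 2 held the highest level of several single genes besides Ccl2 and Ccl7, picked for this description with their values in view. Il1b (1398256_at), the cytokine interleukin-1 beta, read 9.29, 7.07, 7.28 and 6.12 in vehicle and 5.14, 10.83, 6.06 and 5.68 in treated livers. Hmox1 (1370080_at), the haem-degrading enzyme haem oxygenase 1, read 11.92 on treated 2 and between 7.95 and 10.49 on the other arrays. The Tnf probe set 1391384_at read 5.84 on treated 2 and at most 4.45 elsewhere, while the brighter Tnf probe set 1387691_at read 5.33 on treated 2 and up to 5.54 elsewhere. Of the measured neutrophil genes, S100a8 (1368494_at) and the dim Mmp8 (1387735_at) were also highest on treated 2. S100a8 read 6.86 there and at most 6.79 elsewhere, and Mmp8 read 4.13 and at most 3.87 elsewhere. S100a9, Lcn2, Camp, Csf3r, Cxcr2 and Np4 were highest on another array. S100a9 (1387125_at) read 8.12 on treated 2 and 8.30 on vehicle 1, and Lcn2 (1387011_at) read 8.77 on treated 2 and up to 10.87 elsewhere.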
